A study of Mus musculus with 2 samples.

Results

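The 9 genes described here encode isoenzymes of glycolysis and of the steps that follow it: glyceraldehyde-3-phosphate dehydrogenase (Gapdh, Gapdhs), phosphoglycerate kinase (Pgk1, Pgk2), lactate dehydrogenase (Ldha, Ldhb, Ldhc) and the E1 alpha subunit of pyruvate dehydrogenase (Pdha1, Pdha2). They were chosen by symbol from the 21911 protein-coding genes of GENCODE M21, and all 9 were found. Gapdhs, Pgk2, Ldhc and Pdha2 are the 4 germ cell isoforms, and the other 5 are their somatic paralogs. Open chromatin was measured by DNase-seq, a method that sequences the ends left where the enzyme DNase I has cut accessible DNA. The tissue was whole testis of male B6CASTF1/J mice, the F1 hybrid of a C57BL/6 and a castaneus strain, aged 14 days, with no treatment or engineered allele named. There were 2 libraries of 1 group, biological replicates 1 and 2. The label of replicate 1 speaks of 3 males and that of replicate 2 of a male in the singular. Since 1 donor label is given to both, their spread may be partly technical.

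Glycolysis splits glucose into pyruvate with a net gain of ATP. Lactate dehydrogenase interconverts pyruvate and lactate, and pyruvate dehydrogenase passes pyruvate on to the citric acid cycle as acetyl-CoA. In spermatogenic cells several of these steps are taken over by isoenzymes found in few other cells. GAPDHS is bound to the fibrous sheath of the sperm tail, and sperm motility depends on it, as it does on PGK2 and LDHC. Pgk1 and Pdha1 are X-linked, and the X chromosome is silenced in pachytene spermatocytes. Pgk2 and Pdha2 are autosomal copies without introns that arose from the RNA of these X-linked parents. Meiosis begins in the mouse in the second week of life, so at the age studied many germ cells are in meiotic prophase and no spermatids are yet present.

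The promoter sequences of the germ cell isoforms are given first because the position of their open chromatin differed from gene to gene. Each is read 5′ to 3′ on the strand of the gene from the RefSeq promoter table (GRCm38.p6, the build called mm10) and ends just before the first annotated start in its window. Capitals mark bases inside a footprint, a short stretch protected from cutting, in either library. That of Pgk2 is chr17:40208641-40208859 on the minus strand, that of Ldhc chr7:46861013-46861202 on the plus strand, that of Gapdhs chr7:30743682-30743931 on the minus strand and that of Pdha2 chr3:141212356-141212605 on the minus strand. The promoter of Pgk1, chrX:106186850-106187099 on the plus strand, is shown for contrast.
Pgk2: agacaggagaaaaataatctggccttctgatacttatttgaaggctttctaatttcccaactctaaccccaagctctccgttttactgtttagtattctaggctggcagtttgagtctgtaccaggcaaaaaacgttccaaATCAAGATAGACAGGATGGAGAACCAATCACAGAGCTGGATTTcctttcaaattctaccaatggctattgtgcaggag
Ldhc: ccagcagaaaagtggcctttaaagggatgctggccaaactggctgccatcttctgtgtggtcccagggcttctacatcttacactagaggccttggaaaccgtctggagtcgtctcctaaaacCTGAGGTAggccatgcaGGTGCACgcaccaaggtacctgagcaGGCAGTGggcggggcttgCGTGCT
Gapdhs: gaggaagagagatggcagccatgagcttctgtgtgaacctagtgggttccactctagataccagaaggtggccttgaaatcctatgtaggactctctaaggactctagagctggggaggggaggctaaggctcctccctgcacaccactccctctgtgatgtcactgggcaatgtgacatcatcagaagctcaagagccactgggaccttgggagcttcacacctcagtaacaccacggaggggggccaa
Pdha2: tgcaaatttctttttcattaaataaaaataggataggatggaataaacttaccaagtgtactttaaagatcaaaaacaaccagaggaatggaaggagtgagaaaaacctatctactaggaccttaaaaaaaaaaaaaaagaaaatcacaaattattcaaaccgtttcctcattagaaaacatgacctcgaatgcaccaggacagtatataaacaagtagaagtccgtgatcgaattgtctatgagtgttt
Pgk1: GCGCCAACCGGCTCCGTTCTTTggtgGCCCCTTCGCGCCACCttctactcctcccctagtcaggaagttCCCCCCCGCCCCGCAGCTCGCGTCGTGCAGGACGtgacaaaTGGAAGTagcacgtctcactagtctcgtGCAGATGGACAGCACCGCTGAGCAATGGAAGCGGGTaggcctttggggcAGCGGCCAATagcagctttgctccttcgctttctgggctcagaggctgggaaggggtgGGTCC
In these stretches 43 bases of Pgk2, 28 of Ldhc and 130 of Pgk1 lay in a footprint. Neither a peak nor a footprint of either library touched those of Gapdhs and Pdha2.

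Peak values are the signal that the authors deposited, with no stated unit. A gene's promoter value is the highest value among peaks that overlap 1000 bp on each side of any annotated start, and a gene is called open where both libraries have such a peak. There were 101172 peaks with a median value of 0.543 in replicate 1, and 117359 with a median of 0.506 in replicate 2. Among promoters of marker genes for the labelled tissue, 5 of 5 spermatocyte, 3 of 3 general germ cell, 5 of 5 Sertoli cell and 4 of 4 Leydig cell genes were open, where 68.7% of all protein-coding genes were. The median value of the Leydig cell genes, 0.701, was below that of all protein-coding genes, 1.36. Of the spermatid genes 0 of 4 were open, of the leukocyte genes 1 of 3, and of the liver and skeletal muscle genes 0 of 2 each. In a whole tissue, few cells with an open site and a site that is little open in each cell cannot be told apart. With 1 group of 2 libraries no test between groups was possible, and the values below are set against the spread between the libraries.

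All 9 genes were open in both libraries, 4 of 4 germ cell isoforms and 5 of 5 somatic paralogs. The share over all 21911 protein-coding genes was 68.7%, so a peak as such was common. The level divided the genes further. The median promoter value of the germ cell isoforms was 0.556 in replicate 1 and 0.545 in replicate 2 (0.551 ± 0.0078, SD, n = 2), and that of the somatic paralogs 3.52 and 3.58 (3.55 ± 0.044). The ratio of the medians was 6.32 and 6.56. The median over the 15057 open genes was 4.04 and 3.68, and over all protein-coding genes 1.42 and 1.30. The kinds overlapped through a single gene: Pdha2 lay above Ldha and level with Pdha1, whereas Pgk2, Ldhc and Gapdhs lay below all 5 somatic paralogs in both libraries.

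**Figure D1:**
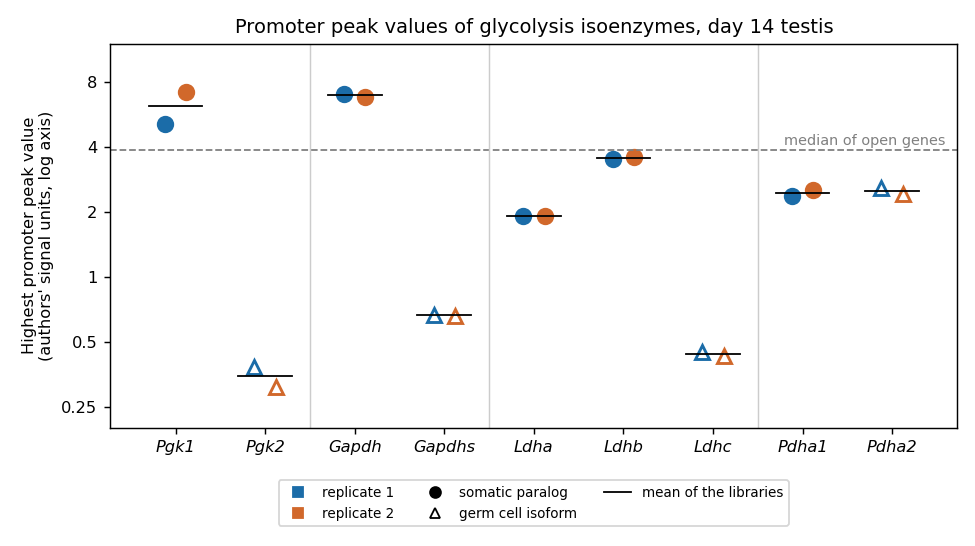
Highest promoter peak value (authors' signal units, log axis) of each gene in replicates 1 and 2, with circles for somatic paralogs, triangles for germ cell isoforms, short lines for the mean of the libraries and a dashed line for the median of open genes. Pgk2, Ldhc and Gapdhs lie at or below 0.667 in both libraries, and Pdha2 lies beside Pdha1 between 2.36 and 2.58.

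Glyceraldehyde-3-phosphate dehydrogenase oxidises the triose phosphate of glycolysis and makes NADH. Gapdh, the enzyme of most tissues, on chromosome 6 (125161715 to 125166467, minus strand), had promoter values of 7.05 and 6.81 (6.93 ± 0.17, SD, n = 2), the highest mean of the 9 genes. Its strongest peak (replicate 1, 125165561 to 125165760, and replicate 2, 125165581 to 125165780) had its centre at -56 and -76 bp from the nearest annotated start, where negative distances are upstream, and overlapped an annotated UTR. Further peaks in its windows made 7 in replicate 1 and 6 in replicate 2, among them one of 1.81 and 1.88 just upstream of the 5′ end of the gene. Gapdhs, the sperm form, on chromosome 7 (30729775 to 30743681, minus strand), had 0.667 and 0.661 (0.664 ± 0.0043). Gapdh was thus 10.6-fold and 10.3-fold higher than Gapdhs in the 2 libraries.

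The peak of Gapdhs was not at any of its 3 starts in GENCODE. It covered 30744157 to 30744288 in replicate 1 and 30744154 to 30744279 in replicate 2, with its centre at -542 and -536 bp from the outermost of them, at 30743681, which is also that of a curated RefSeq transcript. One of the 2 predicted RefSeq transcripts starts further out, at 30744791, and the peak lay inside its first exon (30744078 to 30744791). For each base the authors deposited the rate of false discovery (FDR) at which its cut rate is high, where this is below 0.05. No base at 30743681 was listed, and the 132 and 126 bases listed in all windows of Gapdhs were as many as the peak is wide. The lowest FDR in the windows of Gapdhs was 0.00172 and 0.00418, and in those of Gapdh 4.0e-132 and 1.7e-78. The promoter of its neighbour Tmem147, a membrane protein gene, had 8.99 and 9.78.

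Phosphoglycerate kinase makes the first ATP of glycolysis. Pgk1, on chromosome X (106187100 to 106203699, plus strand), had 5.12 in replicate 1 and 7.20 in replicate 2 (6.16 ± 1.5, SD, n = 2), the widest spread of the 9 genes. Its peak lay upstream of the start in both, at 106186821 to 106187000 and 106186881 to 106187080, with the centre at -190 and -120 bp. Pgk2, on chromosome 17 (40207015 to 40208640, minus strand), consists of 1 exon and had 0.382 and 0.310 (0.346 ± 0.051), the lowest mean of the 9. Only 3.18% of open genes had a lower mean. Pgk1 was 13.4-fold higher than Pgk2 in replicate 1 and 23.3-fold in replicate 2, the largest difference within a family in both libraries. With the values of all peaks in the windows summed, that of Gapdh over Gapdhs was larger (4.28 on the log2 scale, against 4.17 for Pgk1 over Pgk2).

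The Pgk2 peak was weak but in place. It spanned the 5′ end of the gene (40208601 to 40208760 and, in replicate 2, 40208581 to 40208800), with the centre at -40 and -50 bp. The lowest FDR in the window was 3.8e-08 and 1.8e-06, and the peak was also in the shorter of the peak lists deposited for each library, whose limits are not stated. Peak values below 1 are whole multiples of a step particular to the library, and those of Pgk2 were 71 and 82 steps. Taking a step as 1 independent count, which was not tested, the counting error would be 11.9% and 11.0%, against 3.24% and 2.29% for Pgk1. Values above 1, such as those of Pgk1, were not checked for whole steps.

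Lactate dehydrogenase is a tetramer, of A subunits typically in muscle, of B subunits in heart and of C subunits in germ cells. Ldha, on chromosome 7 (46841475 to 46855627, plus strand), had 1.91 in both libraries (1.907 ± 0.0017, SD, n = 2). Its peak, at 46845701 to 46845900 in both, had its centre 4326 bp downstream of the outermost annotated start and at -38 bp from the nearest one. Ldhb, on chromosome 6 (142490249 to 142507957, minus strand), had 3.52 and 3.58 (3.55 ± 0.044), with the peak centred at -44 and -54 bp from its 5′ end. Ldhc, on chromosome 7 (46861203 to 46878142, plus strand), had 0.446 and 0.430 (0.438 ± 0.011). Ldha was 4.28-fold and 4.43-fold and Ldhb 7.88-fold and 8.32-fold higher than Ldhc, with an SD between the libraries of 0.11 and 0.31.

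Ldhc lies next to Ldha, with 15459 bp between their RefSeq starts, and each had a peak of its own. The Ldhc peak, at 46861133 to 46861279 and 46861110 to 46861269, spanned the 5′ end of the gene, with its centre at 3 and -14 bp. The lowest FDR in its windows was 0.000745 and 0.00144. Neither Ldhc nor Gapdhs had a promoter peak in the shorter list of either library, so that 7 of the 9 genes were open there, 2 of 4 germ cell isoforms and 5 of 5 somatic paralogs. This compares with 63.4% of all protein-coding genes.

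**Figure D2:**
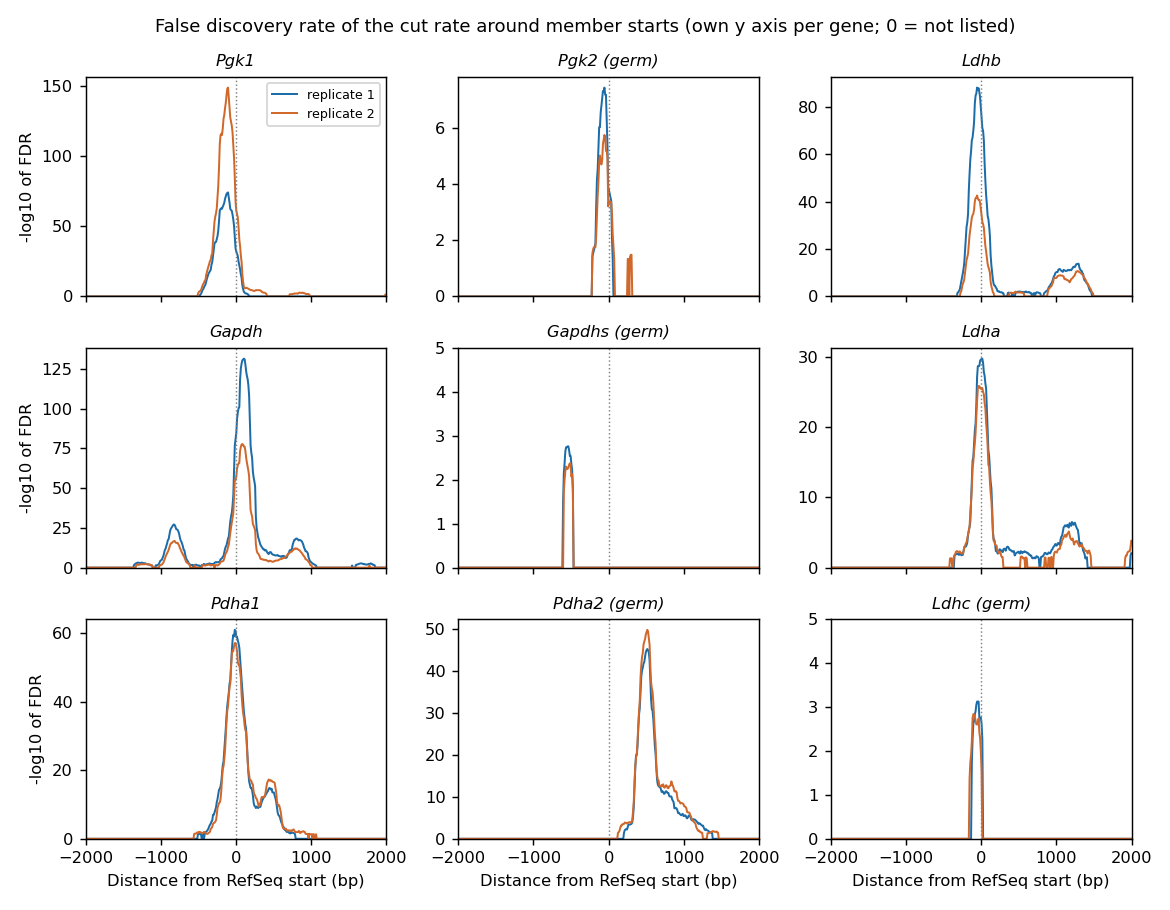
Negative log10 of the lowest FDR of the cut rate per 10 bp, against the distance from the RefSeq start in bp, for each gene and both libraries; each gene has its own y axis, and 0 means that no base was listed below 0.05. The signal of Pgk2 and Ldhc stands just upstream of the start, that of Gapdhs around -542 and -536 bp, and that of Pdha2 around 494 and 504 bp.

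Pyruvate dehydrogenase E1 alpha carries the catalytic and regulated part of the complex that turns pyruvate into acetyl-CoA. Pdha1, on chromosome X (160122209 to 160138413, minus strand), had 2.36 and 2.53 (2.45 ± 0.12, SD, n = 2), with its peak at 160138321 to 160138560 and 160138321 to 160138540 across the 5′ end. Pdha2, on chromosome 3 (141210004 to 141212355, minus strand), is 1 exon long and had 2.58 and 2.43 (2.51 ± 0.11). Pdha1 was 0.915 times Pdha2 in replicate 1 and 1.04 times in replicate 2, so the difference changed direction between the libraries and was smaller than their spread. In both libraries Pdha2 was higher than the other 3 germ cell isoforms.

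The Pdha2 peak lay within the gene. It covered 141211761 to 141211960 (to 141211940 in replicate 2), with its centre 494 and 504 bp downstream of the annotated 5′ end. This is in the stretch annotated as 5′ UTR, and the peak ends 16 bp before the first coding base. No base at the annotated start was listed below an FDR of 0.05, while the lowest FDR in the window was 6.5e-46 and 1.8e-50. The open site thus stood at the coding end of a long annotated leader, away from its single annotated start.

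The sequences of the coding regions show how far the members have diverged. Coding sequence identity, after global alignment, was 79.3% between Pgk2 and Pgk1, 75.6% between Pdha2 and Pdha1, 73.9% between Ldhc and Ldha, 65.2% between Ldhc and Ldhb and 71.5% between Gapdhs and Gapdh. Ldhb and Ldha were 73.0% identical. Bases aligned to a gap were left out, so the value of Gapdhs rests on 1065 of its 1320 coding bases. The strongest promoter peak of a germ cell isoform in replicate 1 shared at most 14 bases in a row with the whole gene of a somatic paralog (10 bases between the peak of Pgk2 and Pgk1, 13 between that of Pdha2 and Pdha1). Of 7 pseudogenes annotated by the symbols of Gapdh, Ldha and Pgk1, 0 had a peak within 1000 bp in either library. These are only those named by a member symbol followed by -ps or -rs, and pseudogenes under other names were not counted. The share over all pseudogenes was not computed.

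Within the strongest promoter peaks, 5 and 4 footprints were called at Pgk1 in replicates 1 and 2, 6 and 6 at Gapdh, 3 and 6 at Ldha, 4 and 3 at Ldhb and 6 and 8 at Pdha1. The median over open genes was 4 and 5. Among the germ cell isoforms Pdha2 had 6 and 7, of which 5 in each library overlapped one of the other library. Gapdhs had 3 and 2, and Ldhc 2 and 2. Those of Ldhc did not overlap between the libraries, 0 of 2. Pgk2 had 1 footprint in each, 25 and 43 bases long, and these overlapped. Of those of Gapdhs 2 of 3 and 2 of 2 overlapped. At the somatic paralogs 4 of 5 and 2 of 4 overlapped at Pgk1, and 6 of 6 and 5 of 6 at Gapdh. The counts were 3 of 3 and 4 of 6 at Ldha, 3 of 4 and 3 of 3 at Ldhb, and 6 of 6 and 5 of 8 at Pdha1. The share of footprints in all open promoters that overlap between the libraries was not computed, so these overlaps have no such reference.

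Several footprints recurred at the same bases and are printed to show what they cover. That of Ldha, chr7:46845787-46845805 on the plus strand, holds the cAMP response element TGACGTCA, in capitals, and in replicate 2 it ran 1 base further. That of Gapdh, chr6:125165625-125165654 on the minus strand, was called at identical bases in both libraries and holds a TATA box match, in capitals. That of Pdha2 covers 20 bases, in capitals, again identical in both libraries, and is shown within chr3:141211870-141211899 on the minus strand.
Ldha: cactcTGACGTCAgcgcgg
Gapdh: ccccccaccatccgggttccTATAAAtacg
Pdha2: gagcaGGCCCCGTGGGCGTGGCTTCcagct
The Pgk2 footprint, in capitals in its promoter above, ends within a CCAAT box in replicate 1 and covers it in replicate 2. A match says only that these letters are present.

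In the RefSeq promoter windows, 250 bp before to 50 bp after the start, the observed over expected frequency of the dinucleotide CpG was 0.291 for Pgk2, 0.424 for Ldhc, 0.173 for Gapdhs and 0.608 for Pdha2. For the somatic paralogs it was 0.723 at Pgk1, 0.882 at Ldha, 0.696 at Ldhb, 0.501 at Gapdh and 0.741 at Pdha1. The median of the 32851 windows in the table was 0.384. The ratio of Pdha2 rests on 4 CpG in a window with 29.7% G and C. The windows of Pgk2 and Gapdhs also held 4 CpG each, and that of Gapdh held 12 at 56.7% G and C. In 200 bp centred on the strongest peak of replicate 1, Pdha2 had 0.751, Pgk2 0.333, Ldhc 0.602 and Gapdhs 0.221, all below the median of 0.809 over the peaks of open genes. Of the somatic paralogs Gapdh, with 0.690, and Ldhb, with 0.731, also lay below it, and Pgk1 with 0.848, Ldha with 0.920 and Pdha1 with 0.937 above. Pgk1 held 5 matches to the GC box GGGCGG and Ldha 3 in their promoter windows, and Ldhc held 1. The other 3 somatic paralogs (Ldhb, Gapdh and Pdha1) and the other 3 germ cell isoforms held 0. At least 1 such match was present in 35.7% of all windows. In the 200 bp around the strongest peak, Ldha held 2 and Pgk1, Ldhc and Gapdh 1 each, and the other members none. Of such regions over open genes, 61.1% held a match.

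Other motifs were searched on both strands in the same windows. These windows hold no part of the strongest peaks of Gapdhs and Pdha2. They hold those of Pgk2 and Ldhc whole. Of the strongest peaks of Gapdh, Ldha, Ldhb and Pdha1, and of that of Pgk1 in replicate 1, they hold only part. The CCAAT box CCAAT was matched 2 times in Pgk2 and 1 time each in Pgk1 and Ldhb (37.4% of all windows have a match). The TATA box TATAAA was matched in Pdha2 alone, 1 time, at -44 bp from the annotated start, where neither library had a peak (13.6% of windows). In 200 bp centred on the strongest peak of replicate 1, TATAAA was instead matched in Gapdh alone, 1 time. Of such regions over open genes, 2.48% had a match. The full cAMP response element TGACGTCA was matched in Ldha alone (1.79%), and its core TGACG, which it contains, also 2 times in Ldhc, at -61 and -47 bp from the RefSeq start, and 1 time each in Gapdhs and Pdha1 (20.8%). The MYB motif AACNGNC was matched 2 times in Ldhc and 1 time each in Pgk1 and Pgk2 (32.8%). The hypoxia element ACGTG was matched 5 times in Ldha, 2 times in Pgk1, 2 times in Gapdhs and 1 time in Gapdh (19.6%). The E-box CACGTG, which contains it on both strands, was matched 2 times in Ldha (7.15%). Each of these E-boxes, at -145 and -48 bp, thus counts as 2 of the 5 matches of Ldha. The motif GTTGCCA of RFX factors was in 0 of the 9 (4.38%), and the CTCF core CCCTC was in Ldhb, Gapdh, Gapdhs and Pdha1 (66.0%).

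Outside promoters, Pgk2 and Pdha2 had the fewest peaks by the mean of the libraries and Gapdhs the highest ones. Distal peaks are those within 50 kb of a start of the gene and outside the promoter windows of all protein-coding genes. Pgk2 had 0 in replicate 1 and 2 in replicate 2, and Pdha2 0 and 1. Ldhc had 3 and 6, Gapdhs 6 and 6, Pgk1 2 and 4, Ldha 3 and 6, Ldhb 5 and 2, Gapdh 4 and 3 and Pdha1 3 and 2. The median over the 9 genes was 3 in both libraries, over all protein-coding genes 4 in both, and over open genes 5 and 6. The medians of the germ cell isoforms were 1.5 and 4, and those of the somatic paralogs 3 and 3, so the order of the kinds changed between the libraries.

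Ldha and Ldhc had the same distal peaks, 100% of each gene's set in both libraries, since their windows overlap, and a distal peak there cannot be given to either gene. Gapdhs had the strongest distal peak of the 9 genes, on chromosome 7 (30769321 to 30769520, from 30769301 in replicate 2), with values of 1.68 and 2.42. It lay at -25.7 kb within Dmkn, a gene of the epidermis, and exceeded the promoter value of Gapdhs itself. The strongest distal peaks near Ldhc, 0.591 and 0.634 and shared with Ldha, likewise exceeded the promoter value of Ldhc. Of the 6 distal peaks of Gapdhs in replicate 1, 5 overlapped a peak of replicate 2. It was 3 of 3 for Ldha and Ldhc, 2 of 2 for Pgk1, 2 of 3 for Pdha1, 2 of 4 for Gapdh and 1 of 5 for Ldhb. No share over all distal peaks is given here. The strongest distal peak of Pgk1 lay at -15.8 kb, at 106171181 to 106171380 in both libraries, with 0.984 and 0.929. That of Gapdh lay 8.27 kb downstream of the RefSeq start in replicate 1, with 0.849, and 8.26 kb downstream in replicate 2, with 0.951.

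Other protein-coding genes within 50 kb were few at both retrocopies and at some somatic paralogs. Pgk2 had 1 such neighbour, Crisp3, and Ldhb 1, Gys2, neither with a promoter peak in either library, while Pdha2 and Pdha1 had 0. Pgk1 had 2, of which 1 was open, Ldhc 2 and Ldha 4, all open. Gapdh had 6 neighbours, all 6 open, and Gapdhs 6, of which 3 were open. The single distal peak of Pdha2, 0.170 in replicate 2, lay 1.39 kb downstream of its start within the gene.

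**Figure D3:**
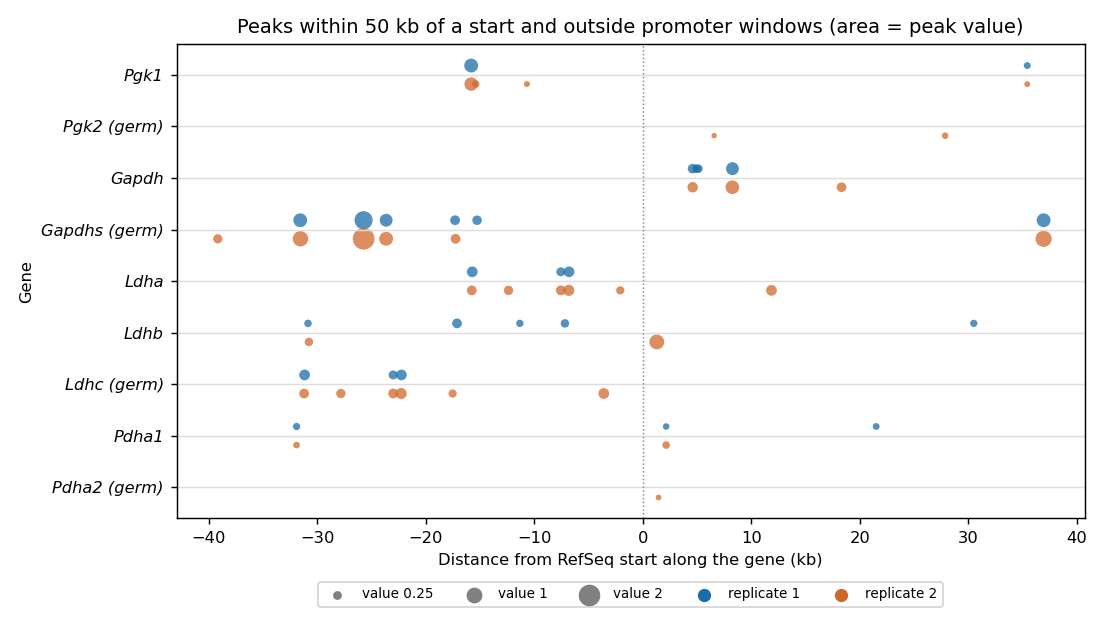
Distal peaks of each gene by distance from its RefSeq start in kb along the gene, with replicate 1 above and replicate 2 below each line and the area of a point in proportion to the peak value. Pgk2 and Pdha2 have none in replicate 1, and Gapdhs has the largest points, at -25.7 kb.

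Males carry a single chromosome X. The median over its open promoters was 1.43 in replicate 1 and 1.53 in replicate 2, while autosomal ones had 4.22 and 3.83. The X median was 0.339 and 0.399 of the autosomal one, and the cause of this difference was not tested. Relative to the 572 open X-linked genes, Pgk1 was high, above 89.9% of them in replicate 1 and 95.3% in replicate 2, and Pdha1 was above 63.5% and 67.1%. Among 4 further pairs of an X-linked parent and an autosomal retrocopy, the retrocopy was higher in both libraries in 3. The RNA-processing gene Cstf2t had 15.0 and 16.1 against 6.59 and 6.67 at Cstf2. Rbmxl2, a germ cell splicing factor gene, had 6.51 and 7.75 against 3.18 and 3.13 at Rbmx. Utp14b, needed for sperm production, had 14.6 and 13.7 against 5.38 and 6.16 at Utp14a, and its peak also lay in the window of Acsl3. In the remaining pair Rpl10l, a ribosomal protein gene, had 2.01 and 2.19 against 4.96 and 5.39 at Rpl10. Pgk2 had 0.0746 and 0.0430 times the value of its parent, the lowest ratio of the 6 pairs, and Pdha2 1.09 and 0.960 times.

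**Figure D4:**
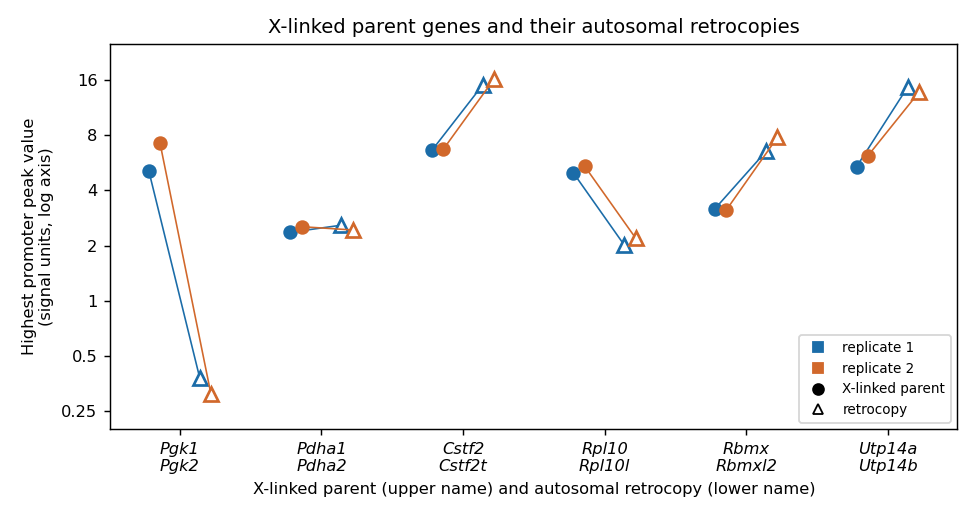
Highest promoter peak value (signal units, log axis) of X-linked parent genes (circles) and their autosomal retrocopies (triangles) in both libraries, joined by lines. The line falls steeply from Pgk1 to Pgk2, is nearly level from Pdha1 to Pdha2, and rises to Cstf2t, Rbmxl2 and Utp14b.

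A list of other genes of glycolysis, of pyruvate and lactate transport and of the pyruvate dehydrogenase complex held 45 matched genes, of which 36 (80.0%, beside 68.7% of all protein-coding genes) were open, 1 had a peak in a single library and 8 in none, with a median promoter value of 3.36 ± 0.13 (SD, n = 2). The 5 highest were Pdhx at 25.4 ± 0.28 and Pdhb at 18.1 ± 1.1, both of the pyruvate dehydrogenase complex, the mitochondrial pyruvate carrier Mpc2 at 20.7 ± 0.42, Bsg, the partner of lactate transporters, at 14.8 ± 1.8, and the pyruvate dehydrogenase kinase Pdk1 at 12.1 ± 0.036. The Pdhx peak also lay in the window of Apip and that of Mpc2 in the window of Dcaf6. With the 9 members included, 45 of 54 genes were open, and Pgk2 and Ldhc were the lowest of these in both libraries. Gapdhs had the next lowest mean, but Aldoart2 lay below it in replicate 1, and Eno3 and Ldhd, an enolase and a D-lactate dehydrogenase gene, in replicate 2. Genes without a peak in either library included Hk3, Aldoart1, Pgam2, Eno1b, Eno2, Pklr and Slc16a8.

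Other testis forms of glycolytic enzymes on this list were unequal too. The aldolase retrogene Aldoart2 had 0.591 and 0.766, while its relative Aldoart1 had none. Ldhal6b, another lactate dehydrogenase-like gene, had 1.19 and 1.40. Eno4, an enolase of the sperm tail, had 7.87 and 7.32, but its peak also lay in the window of Hspa12a. Slc2a3, a glucose transporter, had 0.860 and 1.00 and Slc16a7, a transporter of lactate and pyruvate, 1.12 and 1.14, both below the list median.

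**Figure D5:**
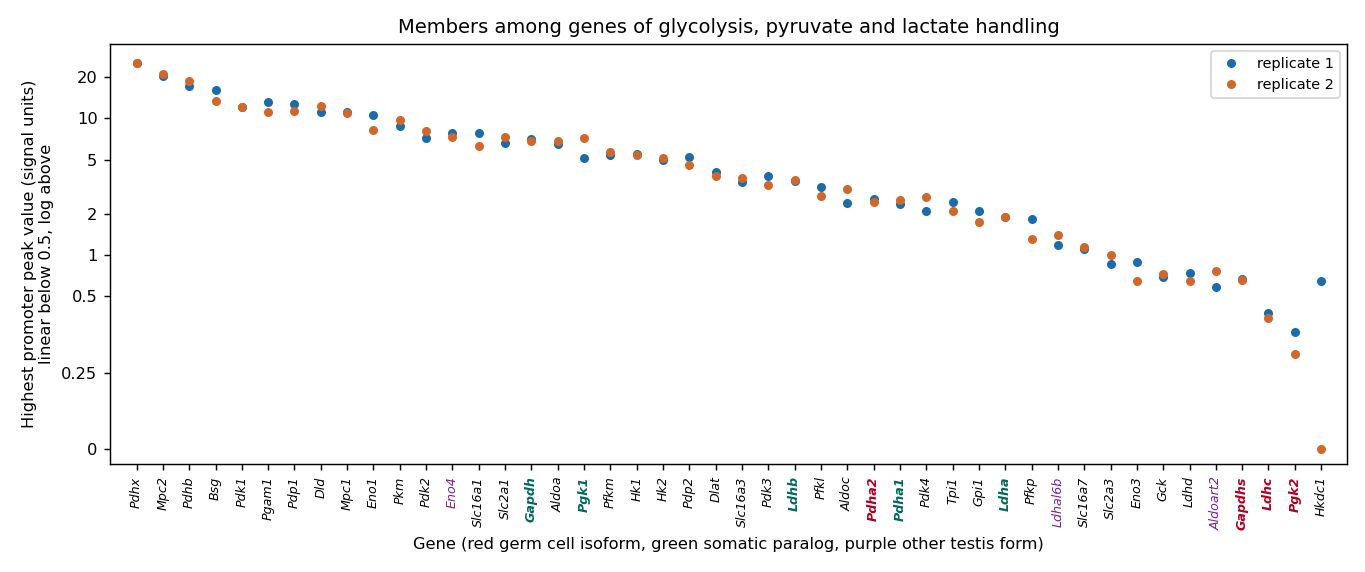
Highest promoter peak value (signal units, linear below 0.5 and log above) in both libraries for the 9 members and the listed genes with a peak in at least 1 library, ordered by mean, with names in red for germ cell isoforms, green for somatic paralogs and purple for other testis forms. Ldhc and Pgk2 are the last genes with a peak in both libraries, and Pdha2 stands next to Pdha1 in the middle.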

How the data were processed

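The authors deposited 2 peak lists, a footprint list and an FDR track per library, and per the deposited text descriptions each derives from its own library's mm10 alignments. Aligner, callers and their versions were not given in the sources used here. A peak's signal (column 7) is the authors' value, and in the longer lists 100% of distinct values below 1 are whole multiples of a step of 0.00538 in replicate 1 and 0.00377 in replicate 2, within 0.05 steps. What a step stands for, and the depth in reads, are unknown. The p-value column of the deposited footprints holds the threshold 0.01 throughout, so only positions were used. The FDR track holds q-values deposited below 0.05.

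The longer lists were used. Starts came from GENCODE M21 and sequences from GRCm38.p6, beyond whose chromosome ends 0 peaks lay. All 9 members matched the RefSeq promoter table, and the first entry of each was used. RefSeq transcript models were compared with the peaks after these had been seen. Proteins were not analysed here, so coding sequences were aligned with Biopython 1.88. Other steps used Python 3.11.15, numpy 2.4.6 and pandas 2.3.3, and the assignment of peaks to promoters was tested on simulated data. Sequences are those of C57BL/6J, and castaneus alleles were not analysed here. The members and lists were chosen with earlier results of these data known. Named genes are all members, the testis forms, the 5 highest open genes and those without a peak in the pathway list, and all retrocopy pairs, except 1 gene without a peak that is not reported here. Tmem147, Crisp3, Gys2, Dmkn, Slc2a3, Slc16a7, Eno3 and Ldhd were named after their values were seen. Of the pathway list, Mpc1l was not matched by symbol. Alternatives were windows of 500 and 2500 bp, the 5′ end alone, the shorter list, peaks at or above the median value, sums of peaks, radii of 20 and 100 kb, and each library alone.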

Additional observations from a re-analysis of the deposited data

How the results depend on the processing

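The count of 9 open members was the same with windows of 500 and 2500 bp and in each library alone. It was 8 with the 5′ end alone, where Ldha had none, and 7 with the shorter list, without Ldhc and Gapdhs, and with peaks at or above the median value, without Pgk2 and Ldhc. The ratio of the somatic to the germ cell median was 6.44 on average, ran from 6.32 to 6.56 in single libraries, and came to 8.93 with sums of peaks, 10.7 with peaks at or above the median value and 20.8 with the shorter list. In the last 2 settings genes left without a peak count as 0, which sets part of the ratio. The log2 ratio of Pdha1 over Pdha2, -0.035 on average, was -0.13 in replicate 1 and 0.059 in replicate 2 alone and 0.46 with sums of peaks. Ratios of the other families kept their sign in all settings where both genes had a peak, but sums of peaks moved log2 Gapdh over Gapdhs from 3.38 to 4.28 and log2 Ldha over Ldhc from 2.12 to 2.96. The median number of distal peaks, 3, came to 1.5 within 20 kb, 5.5 within 100 kb and 1 with the shorter list. No paired analysis was possible because there is 1 group. With 2 libraries the SD is itself poorly known, and weak promoters rest on few steps.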
